A study of Arabidopsis thaliana with 26 samples.

Results

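Nitrite reductase in root plastids takes its electrons from reduced ferredoxin. The 8 genes described here were grouped by the enzymes and the carrier of the route that supplies them, though PGD2 acts mainly in peroxisomes. They are G6PD3 and PGD1, PGD2 and PGD3 of the oxidative pentose phosphate pathway, TRA1 of its non-oxidative branch, the ferredoxin-NADP reductases RFNR1 and RFNR2, and the ferredoxin FD3. They are 8 of 22746 probe sets tested, 1 for each gene. They were picked for the steps of this route with earlier results of these data known, so that their counts beside the background are a description. The probe sets of PGD1 (AT1G64190), PGD2 (AT3G02360), PGD3 (AT5G41670) and TRA1 (AT1G12230) were found through their locus in the array annotation. Those of G6PD3 (AT1G24280), RFNR1 (AT4G05390), RFNR2 (AT1G30510) and FD3 (AT2G27510) have no gene listed there and are named from the choice itself.

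In a root, which has no photosynthetic electron transport, NADPH is the usual source of electrons for ferredoxin. Glucose-6-phosphate dehydrogenase and 6-phosphogluconate dehydrogenase each yield NADPH while oxidizing sugar phosphates, and root-type ferredoxin-NADP reductase passes the electrons on to ferredoxin. Transaldolase belongs to the steps that return pentose phosphates to hexose phosphates.

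The study followed early gene expression in wild-type Columbia roots given nitrate. Plants were grown in hydroponics for 14 days on ammonium succinate and kept for 24 h without nitrogen. They were then given 1 mM KNO3 or, as the control, 1 mM KCl, and roots were harvested after 3, 6, 9, 12, 15 and 20 min or, for time 0, before any salt was given. Each of these 13 groups had 2 ATH1 arrays, described in the methods as biological replicates, 26 in all. On the ATH1 array several short oligonucleotides form the probe set of a transcript, and their brightness is combined into 1 signal. Signals are on the linear MAS5 scale, and the differences given are on the log2 scale. A difference was called at a Benjamini-Hochberg adjusted p under 0.05 from limma, over all 22746 probe sets. A signal gives the amount of transcript in the root as a whole, so more RNA per cell and more cells of a type cannot be told apart.

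The 8 arrays at 3 and 6 min stood apart from the other 18. Their added hybridization controls were brighter (mean log2 signal 12.23 to 13.08 against 9.68 to 10.9), and replicates correlated less (median 0.928 against 0.962). Comparisons of the salts at 1 time point stay within either set, whereas any change between 6 and 9 min, and any comparison of 3 or 6 min with time 0, crosses the 2 sets, so that time and array set cannot be told apart there. Of 8 root and 8 shoot markers listed, only 1 of each had a probe set that the array annotation gives to that gene alone. The others were not analysed here. The root hair gene EXPA7 lay at 516.3 to 1324. RCA, the Rubisco activase gene of green tissue, had 1582 on KNO3 replicate 1 at 15 min and 726.4 on KNO3 replicate 2 at 12 min and at most 407.5 on the other 24 arrays. Without either of these arrays the 6 genes called over 9 to 20 min were still called.

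Of the 8 genes, 6 had higher signals with KNO3 than with KCl over 9 to 20 min, and PGD2 and TRA1 were not called at any time point. The background for a call of higher in that mean was 1.08% of all probe sets. Log2 differences of the 6 were 2.13 for G6PD3, 1.27 for RFNR1, 1.12 for PGD3, 0.96 for RFNR2, 0.89 for PGD1 and 0.61 for FD3, with adjusted p-values from limma between 2.28e-12 and 1.74e-05. The median over the 8 genes was 0.93, beside -0.02 over all probe sets. These 6 calls remained in each of the 6 other settings tried on the same arrays or on the 18 arrays alone and with any of the 16 later arrays left out.

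The calls built up with time. After 3 min 1 of the 8 genes was called higher (background 1.39%), and after 6 min 0 (0.277%). The arrays of 9 min gave 4 calls (0.259%) and those of 12 min gave 6 (0.387%). There were 6 calls again after 15 min (0.721%) and 5 after 20 min (0.659%). None was called lower. At 6 min, 4 of the 8 had an unadjusted p under 0.05 in limma. The share of all probe sets under that unadjusted threshold was not counted. A two-step linear model reconstructed from the methods called 1, RFNR2, among 560 probe sets at 6 min. At each time point this model called more probe sets than the study reported regulated genes. The study's own list at 6 min does not hold RFNR2. The median log2 difference of the 8 genes was 0.12 after 3 min and 0.33 after 6 min, 0.66 and 0.77 in the next pair of times, and 1.17 and 1.15 in the last pair, while that of all probe sets lay between -0.06 and 0.01.

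**Figure D1:**
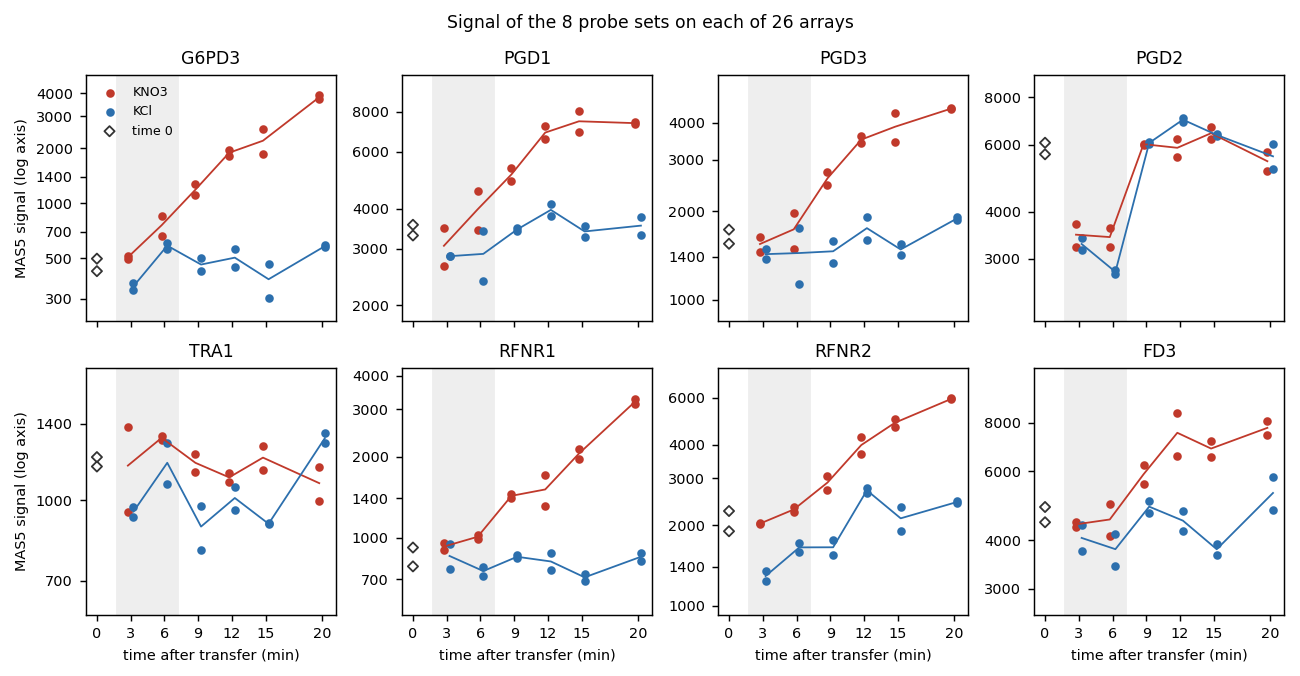
MAS5 signal (log axis, its range set for each gene) on each array against minutes after transfer, for KNO3 (red), KCl (blue) and time 0 (open diamonds), with lines through the means of 2 arrays; the shaded times are those of the 8 arrays that stood apart. KNO3 and KCl arrays separated with time for G6PD3, PGD1, PGD3, RFNR1, RFNR2 and FD3, and PGD2 had low signals at 3 and 6 min with both salts.

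G6PD3, the plastid glucose-6-phosphate dehydrogenase that opens the oxidative branch, had the largest difference of the 8 genes at each time point from 9 min on. At 9 min its signals were 1104 and 1272 with KNO3 and 500.1 and 424.5 with KCl. At 12 min they were 1822 and 1963 with KNO3 and 559.4 and 448.9 with KCl. At 15 min they were 1866 and 2538 with KNO3 and 465.6 and 302.4 with KCl. KNO3 arrays lay above KCl arrays at all 6 time points, already at 3 min (498.2 and 515.0 with KNO3, 368.3 and 335.2 with KCl), where the difference was not called. At 20 min the KNO3 arrays reached 3901 and 3716, against 574.6 and 591.3 with KCl and 425.3 and 497.7 at time 0. The KCl arrays stayed between 302.4 and 608.4 throughout.

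For G6PD3 the log2 difference was called from 9 min (1.36, adjusted p = 0.00106 from limma) and stood at 2.71 after 20 min, a 6.53-fold difference (adjusted p = 1.12e-08 from limma), with an SE of 0.19 at every time point. The gain of 1.34 between 9 and 20 min was itself called (95% interval 0.80 to 1.89, adjusted p = 0.0223 from limma). RFNR1 was the other gene of the 8 called in this change (background 0.356%). The gain of G6PD3 was not called without the intensity trend (adjusted p = 0.111 from limma) or with any of the 8 arrays at 9 and 20 min left out (0.0725 to 0.128), while its size stayed between 1.23 and 1.46.

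PGD1, PGD2 and PGD3 encode 6-phosphogluconate dehydrogenases, the enzymes that release carbon dioxide and a further NADPH. PGD1 and PGD3 act in plastids and the cytosol and PGD2 mainly in peroxisomes. For PGD3, signals at 9 min were 2459 and 2725 with KNO3 and 1589 and 1335 with KCl. At 20 min they were 4459 and 4499 with KNO3, 1875 and 1907 with KCl, and 1733 and 1551 at time 0. The groups did not overlap from 9 min on, and did at 3 and 6 min, where 1 KCl array at 6 min (1756) lay above 1 KNO3 array (1493). PGD3 was called at each time from 9 min on. Its difference was 0.83 at first (SE 0.17, adjusted p = 0.0381 from limma) and 1.24 after 20 min (adjusted p = 0.000243), with its highest difference, 1.38, at 15 min.

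From 9 min on PGD1 followed PGD3 with smaller differences. At 6 min the difference was 0.29 for PGD3 and 0.47 for PGD1, and neither was called. PGD1 then had 3436 and 4520 with KNO3 and 3399 and 2381 with KCl. Its signals at 9 min were 4861 and 5357 with KNO3 and 3480.4 and 3403 with KCl, 2 groups that did not overlap but whose difference of 0.57 (SE 0.16) was not called (adjusted p = 0.196 from limma). At 12 min they were 7218 and 6576 with KNO3 and 3785 and 4138 with KCl, and the difference of 0.80 was called (adjusted p = 0.02 from limma). The KNO3 signals then stayed in one range, at 6913 and 8043 at 15 min and 7333 and 7425 at 20 min, against 3525 and 3263 with KCl at 15 min and 3302 and 3776 with KCl at 20 min. The change of the PGD1 difference between 9 and 20 min was 0.50 (95% interval 0.02 to 0.97, not called). In the fit of the 18 later arrays alone and in the reconstructed two-step model PGD1 was called at 9 min already (adjusted p = 0.0309 and 0.0287).

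PGD2 did not share this course. At 20 min its signals were 5123 and 5735 with KNO3 and 5173 and 6011 with KCl, and at time 0 they were 5662 and 6072. The KNO3 arrays lay below the KCl arrays at 12 min (6225 and 5554 with KNO3, 7065 and 6906 with KCl), with a log2 difference of -0.25 that was not called (adjusted p = 0.393 from limma). Over 9 to 20 min the difference was -0.07, with a 95% interval of -0.19 to 0.05. At 6 min the order was the other way, with 3231 and 3622 with KNO3 and 2746 and 2804 with KCl, a difference of 0.30 (SE 0.11) that was not called either (adjusted p = 0.33 from limma). PGD2 signals also differed between the array sets. On the 8 arrays at 3 and 6 min they ran from 2746 to 3719, against 5123 to 7065 on the other 18.

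The salts' effect on the 3 genes of this enzyme was compared within arrays, as the log2 ratio of 2 probe sets, with an exact permutation test that exchanged the labels KNO3 and KCl within each of the 4 time points from 9 to 20 min (two-sided, p adjusted over 4 pairs). Such a ratio compares changes in signal and not amounts of transcript. The KNO3 minus KCl difference of PGD1 exceeded that of PGD2 by 0.96 ± 0.26 (mean and SD over 4 time points, adjusted p = 0.00206, exact permutation test), and that of PGD3 exceeded that of PGD2 by 1.19 ± 0.24 (adjusted p = 0.00206, exact permutation test). PGD3 also exceeded PGD1, by 0.22 ± 0.036, at 4 of 4 time points, between 0.18 and 0.26 (adjusted p = 0.00206, exact permutation test). The unadjusted p of these 3 was 0.00154, the smallest the design allows. At 3 and 6 min the same pairs differed by -0.18 to 0.17. Across the settings that kept all arrays, the adjusted p of PGD3 minus PGD1 lay between 0.00206 and 0.04 (exact permutation test). PGD1 signals lay at percentiles 95.3 to 99.5 of the array and PGD3 signals at 88.0 to 97.9. Whether the brighter PGD1 signals understate a change was not tested.

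**Figure D2:**
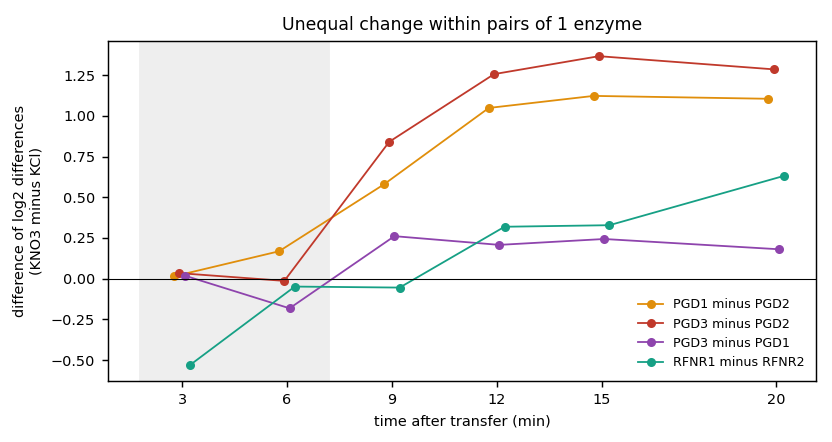
Difference between 2 genes of 1 enzyme in their KNO3 minus KCl log2 difference, against minutes after transfer; points are means over 2 arrays with each salt, with no error drawn, and the shaded times are those of the 8 arrays that stood apart. Both PGD1 and PGD3 changed more than PGD2 from 9 min on, PGD3 minus PGD1 stayed between 0.18 and 0.26 there, and RFNR1 minus RFNR2 lay below 0 up to 9 min and at 0.63 after 20 min.

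TRA1, the transaldolase, gave no call. Its KNO3 arrays lay above the KCl arrays at 6, 9, 12 and 15 min, most clearly at 15 min (1142 and 1270.4 with KNO3, 897.4 and 902.7 with KCl), where the log2 difference was 0.42 (SE 0.15, adjusted p = 0.227 from limma). At 20 min the order was turned, with 1158 and 996.6 with KNO3 against 1343 and 1287 with KCl, a difference of -0.29 (adjusted p = 0.862 from limma). Signals at time 0 were 1209 and 1159.9. The KCl arrays lay below both of these at 9, 12 and 15 min (803.1 to 1059.8) and above both at 20 min. At 9, 12 and 15 min the KNO3 arrays had 1082.4 to 1270.4, around the time 0 signals. The change of the difference between 9 and 20 min was -0.70 (95% interval -1.14 to -0.27). It was not called over all 26 arrays (adjusted p = 0.184 from limma) and passed narrowly over the 18 later arrays alone (adjusted p = 0.0497), a fit chosen after seeing the data.

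RFNR1 and RFNR2 encode the root-type ferredoxin-NADP reductases of plastids. RFNR1 had 1410 and 1452 with KNO3 at 9 min, against 838.6 and 861.3 with KCl. At 15 min it had 1966 and 2141 with KNO3 and 734.3 and 691.7 with KCl. At 20 min it had 3280 and 3131 with KNO3, 822.1 and 878.1 with KCl, and 919.8 and 782.9 at time 0. The KCl signals of RFNR1 stayed between 691.7 and 947.5 at all times, and the groups did not overlap from 6 min on. The log2 difference was called at each time from 9 min on. It was 0.75 at first (SE 0.14, adjusted p = 0.0178 from limma) and 1.92 after 20 min (adjusted p = 1.35e-08 from limma).

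The difference of RFNR1 was larger at 20 min than at 9 min by 1.16 (95% interval 0.76 to 1.56, adjusted p = 0.00684 from limma). This call was lost without the intensity trend (adjusted p = 0.0587 from limma) and on leaving out KCl replicate 2 at 9 min (0.0553), KCl replicate 1 at 20 min (0.0607) or KNO3 replicate 1 at 20 min (0.0566).

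RFNR2 was the earliest of the 8 genes by its calls, but at its first call the KNO3 arrays were not above those of time 0. At 3 min its signals were 2023 and 2033 with KNO3 and 1234 and 1347 with KCl, beside 1899 and 2261 at time 0. The KNO3 arrays lay within the range of the time 0 arrays and the KCl arrays below it, across the 2 array sets. The difference of 0.65 (SE 0.12) was called in the fit of all 26 arrays (adjusted p = 0.00625 from limma), though not in the 8 arrays at 3 and 6 min fitted apart (adjusted p = 0.155) nor with 3 min fitted alone (0.424). At 6 min the signals were 2332 and 2249 with KNO3 and 1716 and 1589 with KCl (log2 difference 0.47, adjusted p = 0.108 from limma). At 9 min they were 2710 and 3071 with KNO3 and 1760 and 1547 with KCl, and the difference was called again (0.81, adjusted p = 0.00357 from limma). There the KNO3 arrays lay above the time 0 arrays and the KCl arrays still below them.

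RFNR2 was called at 12, 15 and 20 min as well. Arrays at 12 min had 4277 and 3711 with KNO3 and 2757 and 2648 with KCl. Arrays at 20 min had 5929 and 5968 with KNO3 and 2472 and 2415 with KCl. KNO3 arrays lay above KCl arrays at all 6 time points. The log2 difference was lowest among the later times at 12 min (0.56, adjusted p = 0.0341 from limma), where the KCl arrays were at their highest, and reached 1.28 at 20 min (adjusted p = 1.18e-06 from limma). The call at 12 min was lost without the intensity trend (0.106), with 12 min fitted alone (0.261) and with any of its 4 arrays left out (0.0944 to 0.177). Over 9 to 20 min the difference of RFNR1 exceeded that of RFNR2 by 0.31 ± 0.28 (adjusted p = 0.0154, exact permutation test), at 3 of 4 time points, with -0.05 at 9 min and 0.63 at 20 min. Over all 6 time points this was not called (0.11, adjusted p = 0.304, exact permutation test), and RFNR1 minus RFNR2 was -0.53 at 3 min.

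FD3, a root-type ferredoxin and so the carrier that nitrite reductase draws on, changed least of the 6 called genes in the mean over 9 to 20 min. Its signals at 9 min were 5562 and 6232 with KNO3 and 4694 and 5051 with KCl, which did not overlap but were not called (log2 difference 0.27, adjusted p = 0.77 from limma). At 12 min they were 6578 and 8486 with KNO3 and 4228 and 4744 with KCl (0.74, SE 0.14, adjusted p = 0.0185 from limma). This call was lost without the intensity trend (adjusted p = 0.0703 from limma) and with 12 min fitted alone (0.219). With 1 array left out, the difference at 12 min lay between 0.55, without KNO3 replicate 2, and 0.92. The signals of FD3 were also compared at the later times. At 15 min they were 6545 and 7179.6 with KNO3 and 3909.7 and 3670.1 with KCl (0.86, adjusted p = 0.00254 from limma). Its call was then lost at 20 min, where KNO3 arrays were as high as before, at 7440.4 and 8068, and KCl arrays higher than at 15 min, at 4776 and 5787 (0.56, adjusted p = 0.102 from limma). With quantile normalization this value was 0.72 and called (adjusted p = 0.00925), and it was also called with 20 min fitted alone (0.0307) and in the reconstructed two-step model (0.00766). Signals at time 0 were 4444 and 4862. FD3 lay in the top percentiles of the array throughout (96.9 to 99.6). Whether signals that bright understate a change was not tested.

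**Figure D3:**
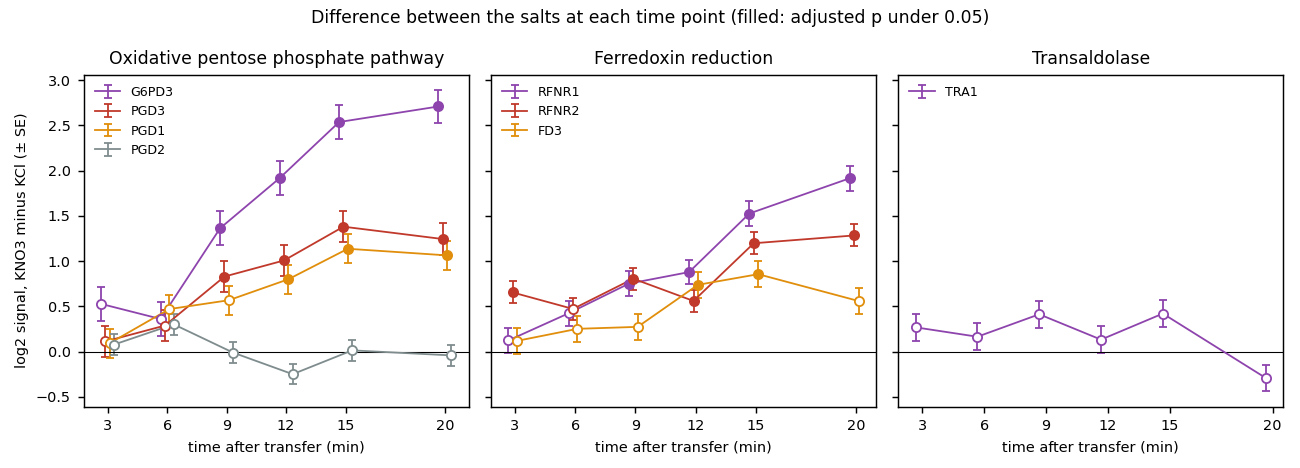
KNO3 minus KCl difference in log2 signal against minutes after transfer for the genes of the oxidative pentose phosphate pathway, of ferredoxin reduction and for TRA1; bars are the SE from limma, filled points have an adjusted p under 0.05, and each point rests on 2 arrays with each salt. G6PD3 reached 2.71 and RFNR1 1.92 at 20 min, while PGD2 and TRA1 had no filled point.

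By the first time from which a gene was called at every later one, the order was G6PD3, PGD3, RFNR1 and RFNR2 at 9 min and PGD1 at 12 min. FD3 was called at 12 and 15 min only. The study's own lists, made with its own criteria, place 2 of these genes otherwise. Its list at 9 min holds G6PD3, PGD3, RFNR1 and PGD1. RFNR2 is not in that list and is in the one at 12 min. This order rests on thresholds and is not a test of a different onset, and it changed with the setting. Without the intensity trend the calls of PGD3 and RFNR1 at 9 min were lost (adjusted p = 0.203 and 0.0942 from limma). Those of PGD1 and FD3 at 12 min were lost as well (adjusted p = 0.0833 and 0.0703 from limma). With any 1 of the 4 arrays of the time left out, PGD3 at 9 min (0.0624 to 0.854), RFNR1 at 9 min (0.082 to 0.257) and PGD1 at 12 min (0.0521 to 0.17) were not called. The test of a step between neighbouring times, the change of the difference at 9 min against 6 min, called none of the 8 genes (background 0.0176%). Of the 8, 2 had an unadjusted p under 0.05 in limma there, G6PD3 with a change of 1.00 (95% interval 0.45 to 1.55) and PGD3 with 0.54 (0.03 to 1.05). For this unadjusted threshold, too, the share of all probe sets was not counted. In log2 terms, the difference at 9 min as a share of that at 20 min was 66.7% for PGD3, 62.8% for RFNR2, 53.4% for PGD1, 50.3% for G6PD3, 49.0% for FD3 and 39.2% for RFNR1.

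Calls at single times depended on single arrays, most at 9 and 12 min. Without KCl replicate 1 at 6 min PGD1 was called there (0.73, adjusted p = 0.037 from limma), and without KCl replicate 2 at 15 min the FD3 call was lost (0.0609). Leaving out KNO3 replicate 2 or KCl replicate 2 at 9 min left 0 of the 4 calls, and leaving out either other array left 2, with the log2 difference of G6PD3 still at 1.24 or more. At 12 min, 1 call of 6 was left without KCl replicate 1, 2 without KNO3 replicate 2 and 4 without either of the other arrays.

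The 6 genes were higher with KNO3 than before the transfer. Taken as the mean over 9 to 20 min, KNO3 minus time 0 was called higher for 6 of the 8 genes (background 0.914%). The log2 differences were 2.17 for G6PD3, 1.19 for RFNR1, 1.11 for PGD3, 1.04 for RFNR2, 0.95 for PGD1 and 0.58 for FD3. PGD2 and TRA1 had values of 0.02 and -0.06. KCl minus time 0 was called for 0 of the 8 genes (background 0.497%), with 0 at an unadjusted p under 0.05 in limma, and lay between -0.22 for TRA1 and 0.09 for PGD2. Both comparisons share the 2 time 0 arrays. The FD3 call against time 0 (adjusted p = 0.00935 from limma) was lost without time 0 replicate 1 (0.253), without time 0 replicate 2 (0.0884) and without the intensity trend (0.0505).

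**Figure D4:**
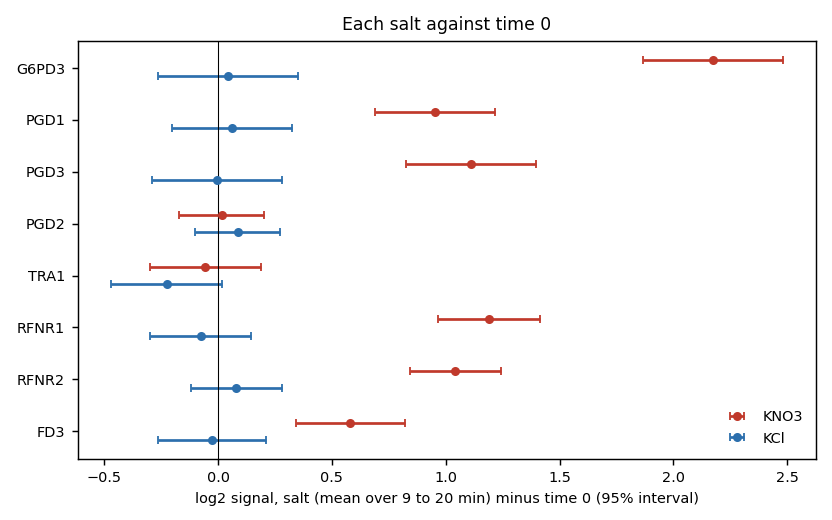
Mean log2 signal over 9 to 20 min minus time 0, with its 95% interval from limma, for KNO3 (red, upper) and KCl (blue, lower); 8 arrays with either salt are set against the same 2 arrays at time 0. With KNO3 the intervals of 6 genes lie above 0, and with KCl the intervals of all 8 genes include 0.

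Over the 26 arrays, which include the replicates of each group, the log2 signals of the 6 called genes correlated with each other at an r of 0.838 or more. Pearson's r was 0.969 between PGD1 and PGD3, and each was the closest match of the other among the 13513 probe sets with 1 gene. Cross-hybridization between these related genes was not tested. For G6PD3 the closest named probe set was AT3G25790 (HHO1, a transcription factor gene of the GARP type; r = 0.962), followed by the PGM gene AT1G78050 (r = 0.955), a phosphoglycerate mutase. PGM was the closest to RFNR1 as well (r = 0.959). The closest to RFNR2 was AT2G24550 (r = 0.938), to FD3 it was PGD3 (r = 0.927) and to TRA1 AT2G41810 (r = 0.828). PGD2 was closest to AT1G16210, with r = 0.960 over the 26 arrays and 0.39 over the 18 without 3 and 6 min.

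Most other genes of the pathway could not be assigned to a probe set. The annotation lists no gene for 8730 probe sets and several genes for 503, and neither kind was used for these genes. How many genes were lost for either reason was not counted. Of 41 listed genes of the pentose phosphate pathway, of ferredoxins and their reductases, and of plastid sugar phosphate import and other NADPH sources, 13 had a probe set used here, the 8 genes above and 5 others. The remaining 28, among them the other glucose-6-phosphate dehydrogenases, the transketolases and TRA2, were not analysed here, and the 5 do not stand for them. The study's own list of nitrate-regulated genes holds some of the 28, among them G6PD2, the transketolase gene TKL1 and TRA2. None of the 5 was called in any of the 11 comparisons with limma, and at most 2 had an unadjusted p under 0.05 in any of them. They were the ribulose-phosphate 3-epimerase genes AT1G63290 and AT3G01850, the ribose-5-phosphate isomerase gene RPI4, the pentose phosphate translocator gene XPT, and CICDH, a cytosolic NADP isocitrate dehydrogenase gene. Over 9 to 20 min their differences lay between -0.08 and 0.06. CICDH, for example, had 7163 and 7810 with KNO3 at 20 min and 7229 and 8021 with KCl. The largest single difference was that of RPI4 at 3 min (1.66, SE 0.46, adjusted p = 0.064 from limma), with low signals of 84.1 and 162.6 with KNO3 and 22.4 and 61.5 with KCl, mostly no higher than the 25th percentiles of the arrays at 3 and 6 min (76.3 to 110.8).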

How the data were processed

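The authors deposited 1 MAS5 signal intensity per probe set and array, on a linear scale, with no image files used here; the methods state default settings and a target median, whereas the trimmed mean is the same on every array. The genome build is not given in the sources used here. Of 22810 probe sets, 64 controls were left out. Log2 signals were fitted with limma 3.58.1 (R 4.3.3; lmFit, eBayes with an intensity trend) over 13 groups of 2 arrays, and p was adjusted by Benjamini-Hochberg over 22746 probe sets in each comparison. Pairs of genes were compared in Python 3.11.15 with numpy 2.4.6. Both steps were tested on simulated data. Arrays have no read depth, and their number limits the precision. Groups came from the sample labels. Named genes are the 8 members, the measured genes of the pathway list and the probe sets most correlated with each member. The members and lists were chosen with earlier results of these data known. Probe sets without a listed gene were named only where the choice of members did so. Loci, and names where it gives them, were checked in the TAIR10.1 gene table. It lists PGD1, PGD2, PGD3, TRA1 and HHO1 by locus only. As alternatives, the intensity trend was dropped, probe sets under the 40th percentile of mean signal were removed, 32 was added to each signal, arrays were quantile normalized, the replicate number entered as a block, time points were fitted singly, the 8 arrays at 3 and 6 min were fitted apart (for the change from 9 to 20 min and for time 0, chosen after seeing the data), a two-step model reconstructed from the methods was run, and each array was left out in turn. Correlations are descriptions over arrays that share groups.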

Additional observations from a re-analysis of the deposited data

Results flagged for a closer look

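The KNO3 minus KCl difference differed between time points for 2 of the 8 genes in a test of the change itself (limma, 20 min against 9 min). The log2 change was 1.34 for G6PD3 and 1.16 for RFNR1. For both genes 4 of 4 KNO3 arrays lay above the KCl arrays at these times, which does not show that the difference grew. Both calls were lost without the intensity trend (adjusted p = 0.111 and 0.0587 from limma) and depended on single arrays. With 1 array left out the change stayed between 1.23 and 1.46 for G6PD3 and between 1.12 and 1.21 for RFNR1. Groups of 2 arrays are too small to single out an array.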

How the results depend on the processing

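The number of genes called at 15 min and over 9 to 20 min was 6 in each setting that kept all arrays of the comparison. Without the intensity trend the counts were 2 at 9 min, 3 at 12 min and 0 for the change from 9 to 20 min. With each time point alone they were 0 at 3 min and 2 at 12 min, with 3 and 6 min fitted apart 0 at 3 min, and in the two-step model reconstructed from the methods 1 at 6 min. With 1 array left out, 6 min gave 0 to 1 calls, 9 min 0 to 2, 12 min 1 to 4 and the change from 9 to 20 min 0 to 1. Values that changed sign were uncalled throughout. They were PGD2 at 15 min with quantile normalization (-0.0348) and, with 1 array left out, PGD1 at 3 min (-0.102 to 0.291), RFNR1 at 3 min (-0.0315 to 0.279), TRA1 at 3 min (-0.0005 to 0.538), PGD3 at 6 min (-0.0306 to 0.608) and PGD2 at 3 min (-0.0218 to 0.180), 9 min (-0.0232 to 0.0017), 15 min (-0.0383 to 0.0670) and 20 min (-0.149 to 0.0672). The cause was not tested. Arrays with the same replicate number did not deviate together (correlation -0.051 to 0.034), and with the replicate number as a block FD3 was called at 20 min (0.56, adjusted p = 0.0431 from limma), which made 6 calls there; no other call changed.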
